A study of Solanum lycopersicum with 18 samples.

Results

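RIN, NOR, TDR4, TAGL1 and AG1 are regulators of tomato fruit development and ripening, and each is represented on the Affymetrix tomato array by 1 probe set chosen by its identifier. They are 5 of the 10209 probe sets in the deposited table. Of those, 7717 passed a filter on dim signals, among them all 5 regulators. Their signals are described over 6 groups of samples of pericarp, the fruit wall, from the variety Pusa Ruby. The groups are rin at 35 DAP, wild type at 35 DAP, rin at 40 DAP, wild type at 40 DAP, rin at 45 DAP and wild type at 45 DAP, with 3 arrays in each and 18 arrays in all. The labels expand DAP to days after planting. By label the wild-type ages are the immature green, breaker and red-ripe stages, and the rin samples carry the same stage names although rin fruit does not ripen normally. No other allele or treatment is named for the fruit.

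RIN is a MADS-box transcription factor of the SEPALLATA type that binds the promoters of many ripening genes, and fruit of the rin mutant stays firm and pale and lacks the burst of ethylene seen at ripening. The rin lesion is a deletion that joins RIN to its neighbour MACROCALYX. NOR is a NAC-domain factor whose mutant is also non-ripening. TDR4, also called FUL1, is a FRUITFULL-type MADS-box factor that forms complexes with RIN. TAGL1 and AG1 belong to the AGAMOUS group of MADS-box genes, of which TAGL1 is needed for fleshy fruit expansion and ripening and AG1 is best known for stamen and carpel identity.

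By label the 3 arrays of a group are biological replicates from plants 1, 2 and 3. The titles also carry a second code, which in wild type can go with a different plant number at different ages. In rin the code of replicates 2 and 3 is the same at all 3 ages. That of replicate 1 in rin is the same at 35 and 40 DAP and differs at 45 DAP. The rin titles thus point to plants sampled at more than 1 age but do not state it, so repeated sampling is not settled. The main fit treated all arrays as independent. Seedlings and shoots appear in the labels' protocols, and the groups were taken from titles and characteristics instead. As a check on the tissue, 4 of 5 tested markers of ripening pericarp rose and 3 of 3 tested markers of green pericarp fell in wild type at 45 DAP relative to 35 DAP, a comparison in which 23.6% of all tested probe sets rose and 18.9% fell. None of the listed seed markers was matched on the array. A signal is called dim here when it lies at or below its own array's 30th percentile, which ran from 11.3 to 15.3 over the arrays. Principal component 1 held 52.3% of the variance, and on it replicate 1 of rin at 40 DAP lay at -7.35, against -55.0 and -54.0 for the other 2 arrays of its group. Replicate 2 of rin at 35 DAP had the highest log2 ratio of 3′ over 5′ control probe sets, a sign of RNA quality, at 1.84, against 0.363 to 1.09 on the others. Differences of the regulators, and of some listed genes, that involve these 2 arrays are also given without them where their call, direction or size depended on them.

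Between the genotypes at matched ages, RIN was lower in rin at every age, TDR4 was lower in rin at 40 and 45 DAP, and NOR, TAGL1 and AG1 did not pass the test at any single age. The test was limma's moderated test on log2 signals, with p-values adjusted over the 7717 probe sets in each comparison and a threshold of 0.05. At 35 DAP 1 of the 5 regulators was lower in rin and none was higher, beside 0.337% of all tested probe sets called in either direction and 0.194% called lower. At 40 DAP 2 of the 5 were lower, beside 25.9% called in either direction and 10.8% called lower. At 45 DAP 2 of the 5 were lower, beside 28.2% called and 15% called lower. All 5 log2 differences were negative at each of the 3 ages, and the median over all tested probe sets was -0.03, 0.07 and -0.12 in order of age. The rin and wild-type arrays did not overlap for 1 regulator at 35 DAP, 2 at 40 DAP and 3 at 45 DAP, beside 12.5%, 40% and 48.6% of all tested probe sets.

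The mean of the 3 age-matched differences was tested as well, and 3 of the 5 regulators were lower in rin, beside 33.7% of all tested probe sets called and 16.3% called lower. The mean log2 difference was -8.01 for RIN (adjusted p = 2.13e-12), measured against dim signals in rin, and -2.42 for TDR4 (adjusted p = 0.000301). That of NOR was -1.59 (adjusted p = 0.0408), and its call held in 7 of the 18 fits that left out 1 array. It was -1.28 and not called without replicate 2 of rin at 35 DAP (adjusted p = 0.0785), and without replicate 1 of rin at 40 DAP it was -2.08 and called (adjusted p = 0.000923). TAGL1 and AG1 had means of -0.35 (adjusted p = 0.122) and -0.65 (adjusted p = 0.089).

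**Figure D1:**
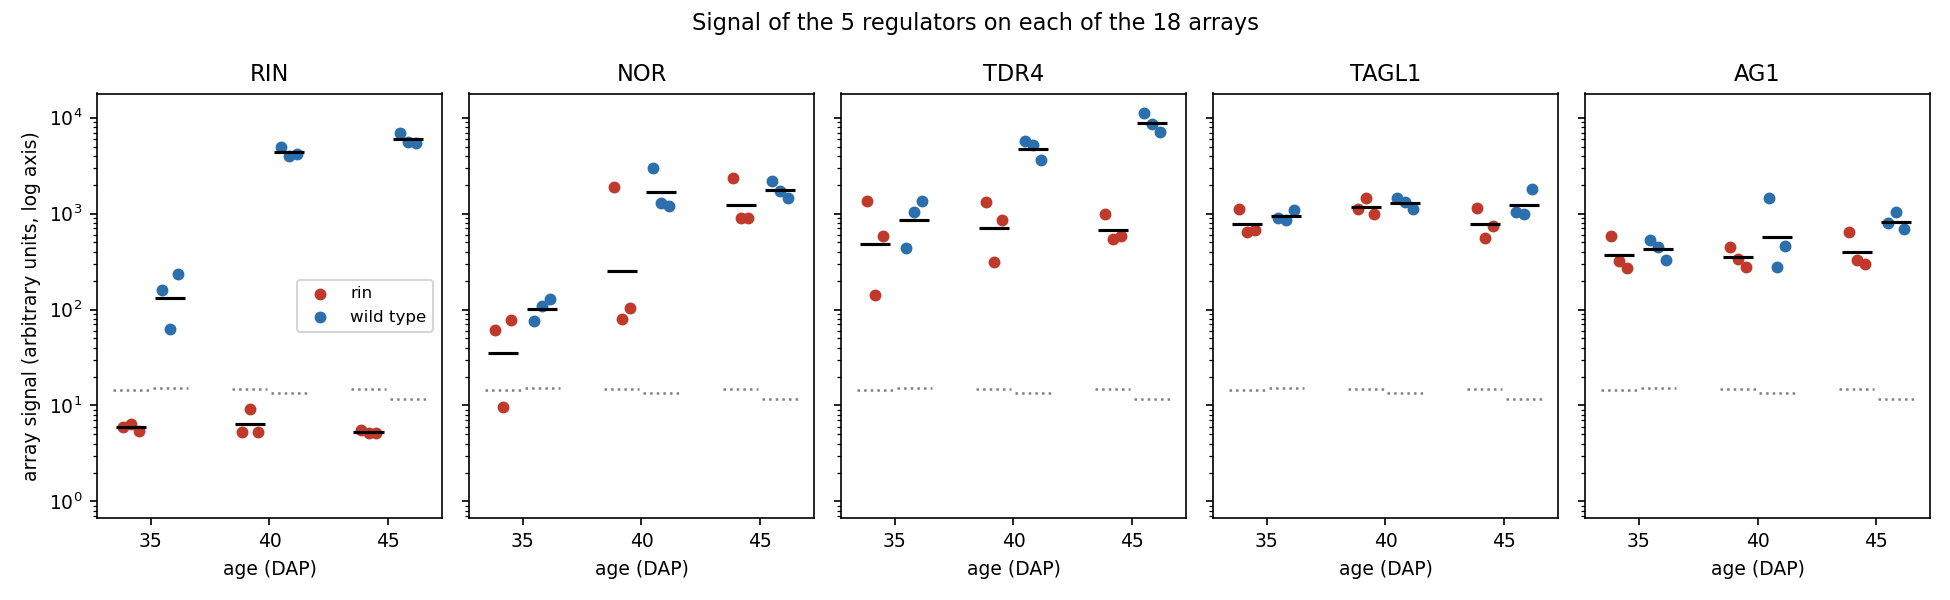
Signal of each regulator on each array (arbitrary units, log axis) against age in DAP, with rin in red left of wild type in blue. Points are arrays, black bars are geometric means of 3 arrays, and dotted lines mark the highest 30th percentile among the arrays of a group. RIN lies below that line on all 9 rin arrays, and TDR4 is separated between genotypes at 40 and 45 DAP.

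RIN was dim on all 9 rin arrays and on none of the 9 wild-type arrays, so it passed the filter through wild-type arrays alone. At 35 DAP its signals, in the order of replicates 1, 2 and 3, were 5.91, 6.39 and 5.46 in rin, against 158, 62.5 and 236 in wild type. At 40 DAP they were 5.33, 9.27 and 5.29 in rin, against 4911, 4020 and 4131 in wild type. At 45 DAP they were 5.61, 5.11 and 5.11 in rin, against 6929, 5527 and 5434 in wild type. The lowest wild-type array, at the immature green stage, thus gave a higher signal than the highest rin array, and the genotypes did not overlap at any age.

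Because every rin array was dim, the folds of RIN are lower bounds. At 35 DAP the signal in rin was lower by at least 9.41-fold (log2 difference -4.49, SE 0.37, adjusted p = 1.34e-05), by at least 299-fold at 40 DAP (-9.41, SE 0.37, adjusted p = 6.73e-10) and by at least 415-fold at 45 DAP (-10.14, SE 0.37, adjusted p = 2.24e-10). When only the 6 arrays at 35 DAP were fitted, the call at that age was lost, with the same log2 difference and an adjusted p of 0.0618. The sources used here do not say where the probes lie relative to the rin deletion, and probes within a deleted stretch would report its absence rather than the level of the rest of the transcript. RefSeq's genes for assembly SLM_r2.1 include MADS-MC, the gene MACROCALYX, and a fused entry MADS-RIN-MADS-MC next to RIN, and 0 probe sets on the array carry either name.

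In wild type RIN rose early and then held a high signal. It averaged 4354 ± 485 at 40 DAP against 152 ± 87.0 at 35 DAP (SD, n = 3 each), a log2 change of 5.03 (adjusted p = 5.75e-07). It averaged 5964 ± 838 at 45 DAP, which gave a log2 change of 5.48 against 35 DAP (adjusted p = 6.96e-08). The further change at 45 against 40 DAP did not pass the test, at 0.45 with a 95% interval of -0.34 to 1.24 (adjusted p = 0.523), although the 3 arrays at 45 DAP all lay above the 3 at 40 DAP. In rin the mean signals were 5.92 ± 0.464, 6.63 ± 2.29 and 5.27 ± 0.291 at 35, 40 and 45 DAP, all dim, so no fold is given. In whole pericarp, fewer cells of a type and less RNA per cell cannot be told apart for this or any other gene.

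TDR4 started at overlapping signals in both genotypes and separated at 40 DAP. At 35 DAP it had 1337, 141 and 582 in rin, against 434, 1048 and 1362 in wild type. At 40 DAP it had 1336, 309 and 865 in rin, against 5653, 5207 and 3628 in wild type. At 45 DAP it had 994, 541 and 583 in rin, against 11239, 8518 and 7014 in wild type. The genotypes overlapped at 35 DAP and not at the later ages, when every wild-type array was above every rin array of any age. The probe set's suffix marks it as one that may match several related transcripts.

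The log2 difference of TDR4 at 35 DAP was -0.83, with a 95% interval of -2.28 to 0.61 (adjusted p = 0.808), and 0.049 without replicate 2 of rin at 35 DAP (adjusted p = 0.999). TDR4 was 6.69-fold lower in rin at 40 DAP, at 837 ± 514 against 4829 ± 1064 in wild type (SD, n = 3 each, log2 difference -2.74, SE 0.68, adjusted p = 0.0082). At 45 DAP it was 12.9-fold lower, at 706 ± 250 in rin against 8924 ± 2141 in wild type (log2 difference -3.69, SE 0.68, adjusted p = 0.000961). Without replicate 2 of rin at 40 DAP, the lowest array of that group, the log2 difference at 40 DAP was -2.14 and still called (adjusted p = 0.0408).

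With age TDR4 rose in wild type, by a log2 change of 2.48 at 40 against 35 DAP (adjusted p = 0.0124) and of 3.36, or 10.3-fold, at 45 against 35 DAP (adjusted p = 0.00111). Without replicate 1 of wild type at 35 DAP, its lowest array there, the first of these was 1.99 and not called (adjusted p = 0.065). At 45 against 40 DAP the wild-type log2 change was 0.88 (adjusted p = 0.488), with no overlap between the arrays. In rin no change of TDR4 with age passed the test. The log2 change was 0.57 at 40 against 35 DAP (adjusted p = 0.729), -0.06 at 45 against 40 DAP (adjusted p = 0.996) and 0.50 at 45 against 35 DAP, with a 95% interval of -0.94 to 1.95 (adjusted p = 0.661). With replicate 2 of rin at 35 DAP left out, the changes against 35 DAP were -0.31 and -0.38, and without replicate 1 of rin at 40 DAP the change at 45 against 40 DAP was 0.39, none of them called.

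NOR had low signals in both genotypes at 35 DAP and high signals in both at 45 DAP, and at 40 DAP the rin arrays were spread over a wide range. At 35 DAP it had 60.6, 9.65 and 77.1 in rin, the second of them dim, against 75.8, 108 and 129 in wild type. At 40 DAP it had 1910, 79.8 and 103 in rin, against 3010, 1298 and 1212 in wild type. At 45 DAP it had 2362, 895 and 903 in rin, against 2203, 1722 and 1453 in wild type. The genotypes overlapped at every age. At 40 DAP replicate 1 of rin lay among the wild-type arrays while the other 2 lay near the signals of both genotypes at 35 DAP.

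The difference of NOR between genotypes did not pass the test at any single age, although its mean over the ages did. It averaged 698 ± 1050 in rin against 1840 ± 1014 in wild type at 40 DAP (SD, n = 3 each), a log2 difference of -2.75 with a 95% interval of -4.83 to -0.66 (adjusted p = 0.0505). Without replicate 1 of rin at 40 DAP the log2 difference was -4.21 and called (adjusted p = 0.000772). Leaving out replicate 2 of rin at 35 DAP can alter the spread and the probe sets tested, but not this difference. The difference then stayed at -2.75 and was called (adjusted p = 0.0324). Of 12 other settings of the processing or of the arrays fitted, 5 left it uncalled and the rest called it. At 45 DAP NOR averaged 1387 ± 844 in rin against 1793 ± 380 in wild type, a log2 difference of -0.51 with a 95% interval of -2.59 to 1.57 (adjusted p = 0.736). At 35 DAP the log2 difference was -1.52 (adjusted p = 0.731), and -0.58 without replicate 2 of rin at that age (adjusted p = 0.999), and 1 of the 9 pairs of a rin and a wild-type array had the higher signal in rin.

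In rin NOR rose by at least 30.8-fold at 45 against 35 DAP (log2 change 5.12, SE 0.98, adjusted p = 0.00741). All 3 arrays at 45 DAP lay above all 3 at 35 DAP, and NOR was the 1 regulator with such a separation, beside 30.1% of all tested probe sets. Without the dim array, replicate 2 of rin at 35 DAP, the log2 change was 4.18 and the call held (adjusted p = 0.0342). The log2 change at 40 against 35 DAP in rin was 2.81 (adjusted p = 0.309), 1.87 without replicate 2 of rin at 35 DAP (adjusted p = 0.732) and 1.35 without replicate 1 of rin at 40 DAP (adjusted p = 0.677), and that at 45 against 40 DAP was 2.31 (adjusted p = 0.363). Without replicate 1 of rin at 40 DAP that last step was 3.78 and called (adjusted p = 0.00918). In wild type NOR rose by 16.5-fold at 40 against 35 DAP (log2 change 4.04, adjusted p = 0.00608) and by a log2 change of 4.11 at 45 against 35 DAP (adjusted p = 0.00356). At 45 against 40 DAP the wild-type arrays overlapped, with a log2 change of 0.07 (adjusted p = 0.984).

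TAGL1 gave signals within a narrow range in all groups, with no call in any of the 19 comparisons between groups. At 35 DAP it had 1104, 638 and 672 in rin, against 910, 865 and 1081 in wild type. At 40 DAP it had 1104, 1441 and 1002 in rin, against 1449, 1309 and 1108 in wild type. At 45 DAP it had 1146, 560 and 748 in rin, against 1030, 987 and 1824 in wild type. The genotypes overlapped at each age. The log2 difference between genotypes was -0.28 at 35 DAP (adjusted p = 0.868), -0.13 at 40 DAP (adjusted p = 0.769) and -0.65 at 45 DAP, with a 95% interval of -1.28 to -0.02 (adjusted p = 0.114). Without replicate 1 of rin at 45 DAP the last was -0.92 and called (adjusted p = 0.032). The intervals at the 3 ages reach from -1.28 to 0.49 on the log2 scale.

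AG1 also had no call in any of the 19 comparisons. At 35 DAP it had 579, 323 and 270 in rin, against 533, 445 and 329 in wild type. At 40 DAP it had 452, 339 and 279 in rin, against 1462, 276 and 465 in wild type, where replicate 1 stood above the other 2. At 45 DAP it had 649, 330 and 300 in rin, against 799, 1035 and 683 in wild type. The genotypes overlapped at 35 and 40 DAP, and at 45 DAP each wild-type array lay above each rin array. The log2 difference was -0.21 at 35 DAP (adjusted p = 0.957), -0.71 at 40 DAP (adjusted p = 0.304) and -1.04 at 45 DAP, with a 95% interval of -2.09 to 0.00 (adjusted p = 0.128). Without replicate 1 of wild type at 40 DAP the difference at 45 DAP was unchanged and called (adjusted p = 0.0397). That array is in neither of the groups compared, and leaving it out can alter the spread and the probe sets tested.

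**Figure D2:**
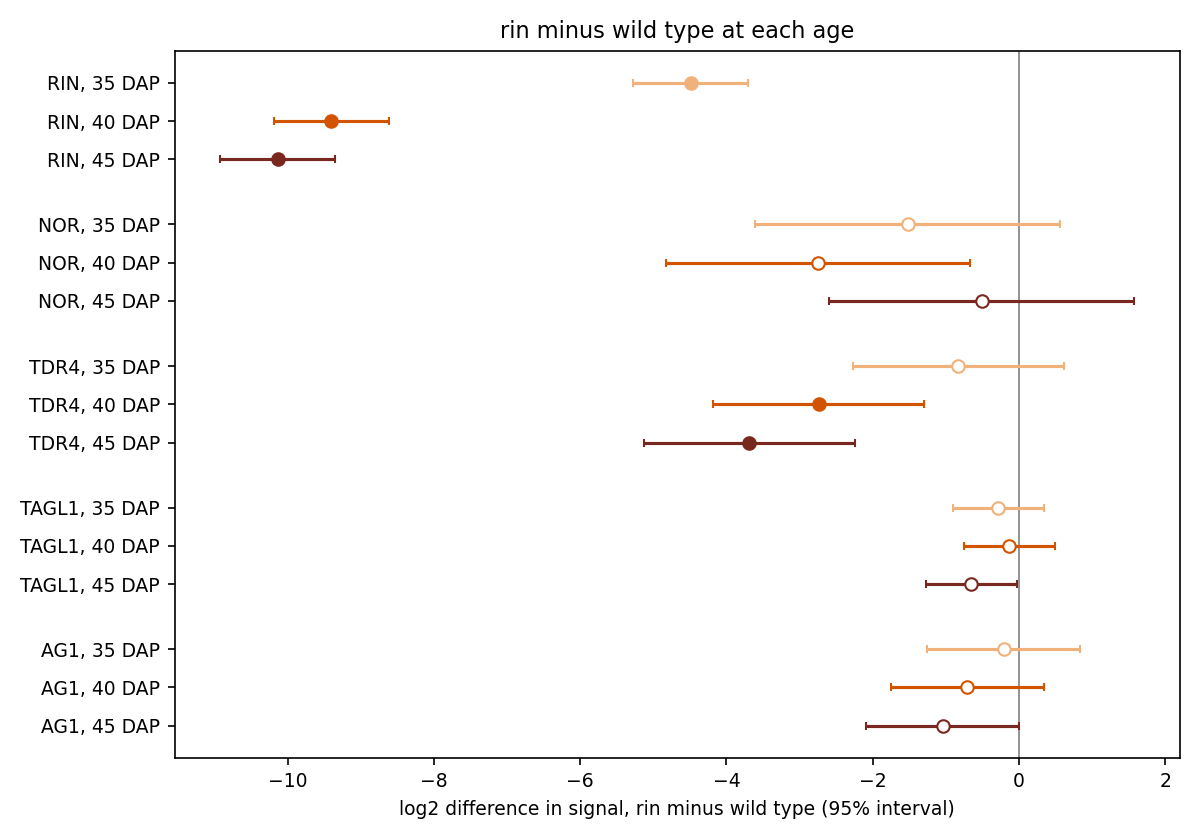
Log2 difference in signal, rin minus wild type, for each regulator at 35, 40 and 45 DAP, with 95% intervals from the fit over 18 arrays. Filled points passed the test at an adjusted p under 0.05. RIN lies at -4.49, -9.41 and -10.14 and TDR4 at -0.83, -2.74 and -3.69, while the points of NOR, TAGL1 and AG1 are open at every age.

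With age, RIN, NOR and TDR4 rose in wild type at 40 and at 45 against 35 DAP, and NOR was the 1 regulator called in rin, at 45 against 35 DAP. In wild type 3 of the 5 were called, all higher, at 40 against 35 DAP, beside 30.9% of all tested probe sets called and 14.5% called higher. The same count, 3 of 5 higher, was found at 45 against 35 DAP, beside 42.6% called and 23.6% called higher. At 45 against 40 DAP in wild type limma called 0 of the 5, beside 8.31% of all probe sets. At an unadjusted p under 0.05 the count was also 0, beside 1785 of the 7717 tested probe sets. The arrays of these 2 ages did not overlap for RIN and TDR4, beside 27.9% of all. In rin limma called 0 of the 5 at 40 against 35 DAP, beside 0.0259% of all. At an unadjusted p under 0.05 there was 1, NOR, beside 1060 of the 7717 tested probe sets. Limma called 0 of 5 in rin at 45 against 40 DAP, beside 0.363%. Unadjusted there was again 1, NOR, beside 897 of the 7717. In rin at 45 against 35 DAP limma called 1 of 5, beside 11.3% called and 6% called higher. The wild-type arrays at 45 and 35 DAP did not overlap for 4 of the 5, the fourth being AG1, beside 60.5% of all probe sets. AG1's log2 change was 0.95 (adjusted p = 0.133), and the same and called without replicate 1 of wild type at 40 DAP (adjusted p = 0.0429). The wild-type arrays at 40 and 35 DAP did not overlap for 4 of the 5, the fourth being TAGL1 at 0.44 (adjusted p = 0.281), beside 47.8% of all.

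**Figure D3:**
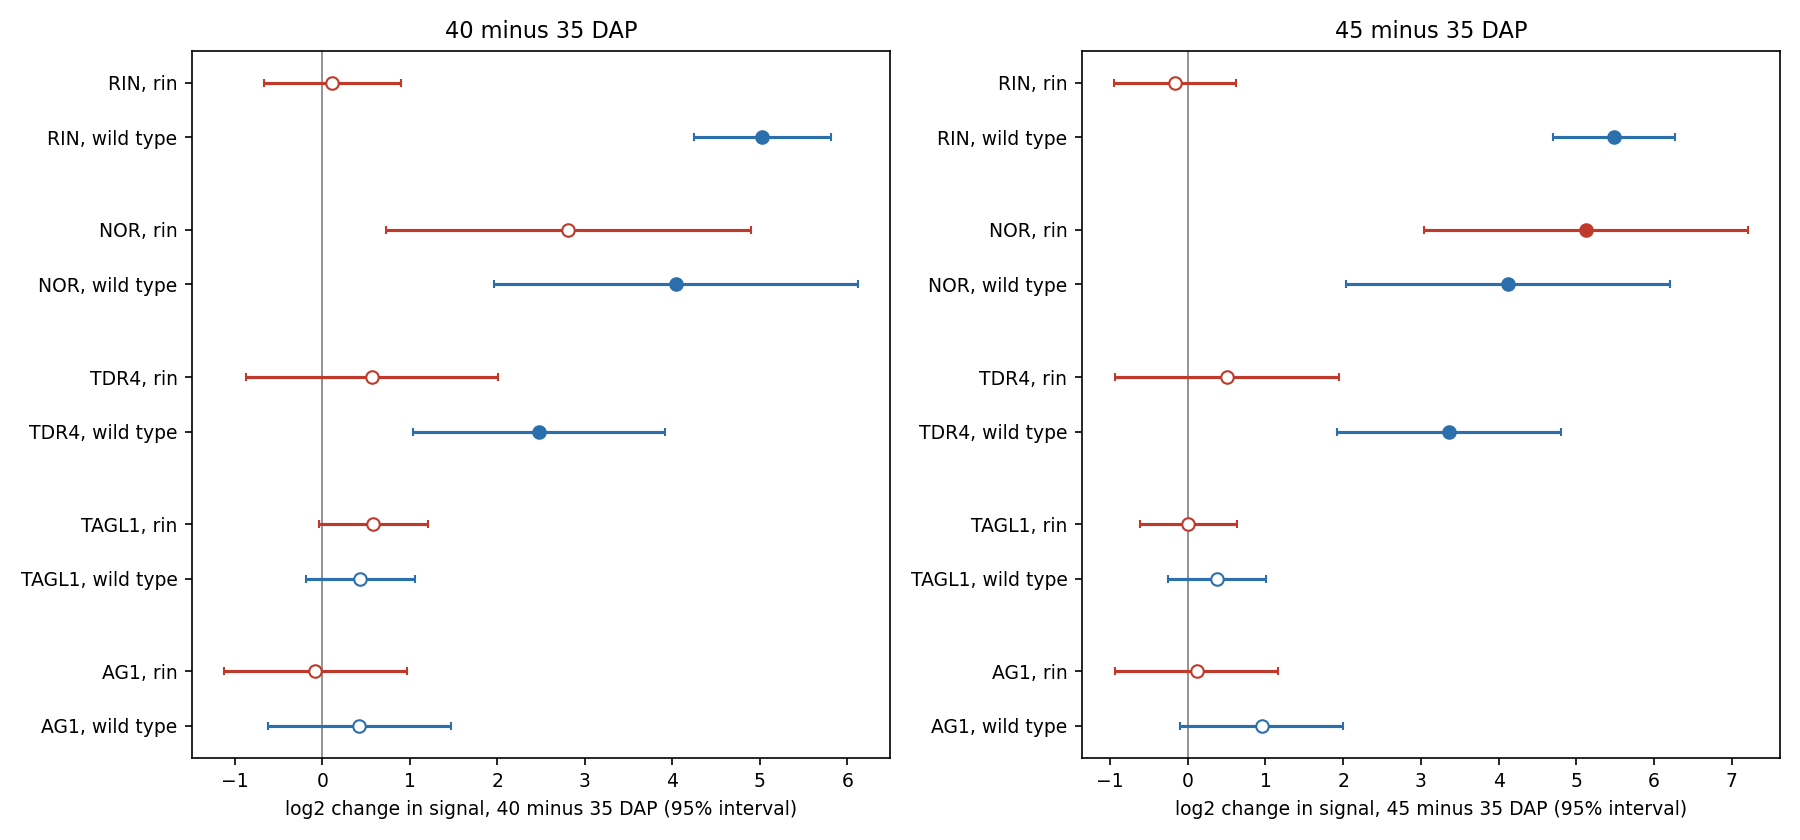
Log2 change in signal at 40 minus 35 DAP (left) and at 45 minus 35 DAP (right) for each regulator, with rin in red above wild type in blue and 95% intervals from the fit over 18 arrays. Filled points passed the test at an adjusted p under 0.05. In rin the filled point is NOR at 45 minus 35 DAP, at 5.12, and in wild type RIN, NOR and TDR4 are filled in both panels.

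Whether a change with age differed between the genotypes was tested by the interaction of genotype and age. RIN passed, with a change in rin minus that in wild type of -4.92 on the log2 scale at 40 against 35 DAP (adjusted p = 9.16e-05) and of -5.65 at 45 against 35 DAP (adjusted p = 8.61e-06). Its signals in rin were dim at every age, so the size of both rests on the dim level. It was 1 of the 5 regulators called in each, beside 9.37% and 13.2% of all tested probe sets. TDR4 did not pass, at -1.91 (adjusted p = 0.222) and -2.86, with a 95% interval of -4.90 to -0.81 (adjusted p = 0.0628). Without replicate 2 of rin at 35 DAP, the lowest TDR4 array, both were called, at -2.79 (adjusted p = 0.0435) and -3.74 (adjusted p = 0.00794), and without replicate 2 of rin at 40 DAP the second was called at an unchanged value (adjusted p = 0.0445). NOR had an interaction of -1.23 at 40 against 35 DAP (adjusted p = 0.611) and of 1.01 at 45 against 35 DAP, with a 95% interval of -1.94 to 3.96 (adjusted p = 0.677). That interval is too wide to say that NOR changed alike in both genotypes. Without replicate 2 of rin at 35 DAP these were -2.17 (adjusted p = 0.334) and 0.0689 (adjusted p = 0.981), and without replicate 1 of rin at 40 DAP the first was -2.69 (adjusted p = 0.0828). For the last step, 45 against 40 DAP, NOR's interaction was 2.24 (adjusted p = 0.41), and 3.70 and called without replicate 1 of rin at 40 DAP (adjusted p = 0.0428). With all arrays limma called 0 of the 5 for that step, beside 3.81% of all probe sets. At an unadjusted p under 0.05 the count was also 0, beside 1472 of the 7717 tested probe sets. TAGL1 and AG1 had no interaction called.

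Set against younger wild-type fruit, rin fruit at 45 DAP differed by gene. NOR in rin at 45 DAP was 12.2-fold higher than in wild type at 35 DAP (log2 difference 3.60, adjusted p = 0.0397). The arrays of these 2 groups did not overlap for 2 of the 5 regulators, NOR and RIN, beside 36.4% of all tested probe sets. The call for NOR was lost in 9 of the 18 fits that left out 1 array, where adjusted p reached 0.135 without replicate 1 of wild type at 35 DAP and the log2 difference ran from 3.14 to 3.84. Against wild type at 40 DAP the log2 difference of NOR was -0.44, with a 95% interval of -2.52 to 1.65 (adjusted p = 0.834). TDR4 in rin at 45 DAP had a log2 difference of -0.33 against wild type at 35 DAP (adjusted p = 0.828) and was 6.98-fold lower than in wild type at 40 DAP (log2 difference -2.80, adjusted p = 0.0157). The second of these lost its call without replicate 1 of wild type at 40 DAP (adjusted p = 0.0571) and without replicate 2 or 3 of rin at 45 DAP (adjusted p = 0.0632 and 0.0627). RIN in rin at 45 DAP was at least 9.30-fold lower than in wild type at 35 DAP (log2 difference -4.66, adjusted p = 9.7e-06). Beside these, 6.56% of all tested probe sets were called for rin at 45 against wild type at 35 DAP and 11.1% for rin at 45 against wild type at 40 DAP.

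Ordered by geometric mean, the 6 groups of RIN ran rin 45, rin 35, rin 40, wild type 35, wild type 40 and wild type 45 DAP. Neighbours in that order differed beyond their spread between rin 40 and wild type 35 DAP (adjusted p = 1.91e-05) and between wild type 35 and wild type 40 DAP (adjusted p = 5.75e-07). TDR4 ran rin 35, rin 45, rin 40, wild type 35, wild type 40 and wild type 45 DAP, and the 1 step called was that between wild type 35 and wild type 40 DAP (adjusted p = 0.0124). NOR ran rin 35, wild type 35, rin 40, rin 45, wild type 40 and wild type 45 DAP, and no neighbouring groups passed the test, the smallest adjusted p being 0.363. The groups of TAGL1 and AG1 had geometric means from 779 to 1281 and from 350 to 826, with no neighbours called in either. Signals are not compared between these genes, since probe sets differ in how brightly they report a transcript.

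Across arrays, the correlation of log2 signals between the regulators is given as a description, since arrays of a group share genotype and age. In the 9 wild-type arrays RIN had Pearson's r of 0.967 with NOR and 0.923 with TDR4, and NOR had 0.948 with TDR4. In the 9 rin arrays NOR and TDR4 had r of 0.608, and those of RIN are not given there because its signal was dim throughout. Replicate 2 of rin at 35 DAP was the lowest rin array for both NOR (9.65, dim) and TDR4 (141). The r of 0.608 rests in part on that array, and its value without it is not given. TAGL1 and AG1 had r of 0.451 over the 18 arrays, 0.518 over the 9 rin arrays and 0.201 over the 9 wild-type arrays.

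Among 630 other named genes, those whose log2 signals followed each regulator most closely over the 18 arrays were picked by Pearson's r. For RIN they were PETE, a plastocyanin (r = 0.935), the endoglucanase gene Cel2 (0.907) and Fad7, a plastid fatty acid desaturase (0.894). RIN was dim on all 9 rin arrays, so these values rest in part on the dim level. Over the 9 wild-type arrays alone these genes ranked 40, 22 and 60. For NOR they were LOC543802 (0.962), AAT, an alcohol acyltransferase of ester aroma synthesis (0.943), and loxC, a lipoxygenase of flavour volatile synthesis (0.928). For TDR4 they were SODCC.1, a superoxide dismutase (0.912), PTOX, the plastid terminal oxidase (0.905), and HRBP1 (0.896). For TAGL1 the highest values were lower, with PTI1 at 0.776, LOC544261 at 0.737 and Fad7 at 0.680. For AG1 they were CTR4 (0.854) and CTR1 (0.823), kinases of the family that acts in ethylene signalling, and CIP2b (0.801). The median r over all 630 genes lay between -0.05 and -0.04 for each regulator.

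The genes most like RIN depended on the arrays used. Over the 9 wild-type arrays they were Psy1, the phytoene synthase of fruit carotenoid synthesis (r = 0.998), the ethylene receptor gene ETR3, listed as LOC544279 (0.993), and UCP (0.989), and over all 18 arrays those 3 ranked 23, 44 and 11. Psy1 and ETR3 rose in rin at 45 against 35 DAP, by log2 changes of 2.02 (adjusted p = 0.00728) and 2.03 (adjusted p = 0.016), while RIN stayed dim there. Without replicate 2 of rin at 35 DAP Psy1 kept the call, at 2.14 (adjusted p = 0.0244). ETR3 was then at 2.05, with an adjusted p that rounds to the threshold of 0.05. The 3 genes most like NOR had been picked over 18 arrays that include the 9 rin arrays. Over the 9 rin arrays alone they ranked 2, 3 and 4 among the 630. Their r there was 0.975 for LOC543802, 0.971 for AAT and 0.950 for loxC. Over the 9 wild-type arrays they ranked 14, 42 and 17, and LOC543710, GSH1 and TFT7 ranked 1, 2 and 3.

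AAT and loxC, which were picked for their r with NOR over these arrays, are given by array. At 40 DAP AAT had 1768, 161 and 34.0 in rin, against 7216, 7530 and 7745 in wild type, and loxC had 331, 59.5 and 19.9 in rin, against 4015, 2844 and 2018 in wild type. Replicate 1 of rin at 40 DAP was the highest of its group for both, as it was for NOR. Of the other 2 arrays, AAT and loxC were higher on replicate 2 and NOR on replicate 3. At 45 DAP AAT had 3893, 1152 and 1351 in rin, against 9874, 7830 and 8988 in wild type, and replicate 1 was again the highest rin array. In rin at 45 against 35 DAP, AAT rose by at least 48.4-fold (adjusted p = 0.0118), loxC by at least 21.3-fold (adjusted p = 0.00528) and LOC543802 by a log2 change of 1.62 (adjusted p = 0.0115), the first 2 being bounds because 1 and 2 of the arrays at 35 DAP were dim. Without replicate 2 of rin at 35 DAP loxC kept its call (log2 change 4.79, adjusted p = 0.0274), while AAT (4.89, adjusted p = 0.0554) and LOC543802 (1.39, adjusted p = 0.0549) did not. At 40 DAP all 3 were lower in rin than in wild type, by log2 differences of -5.14 (adjusted p = 0.0102), -5.28 (adjusted p = 0.00103) and -1.29 (adjusted p = 0.013). These were, without replicate 1 of rin at 40 DAP, -6.66 (adjusted p = 0.00132), -6.37 (adjusted p = 0.000149) and -1.77 (adjusted p = 0.000427), in the order AAT, loxC and LOC543802.

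**Figure D4:**
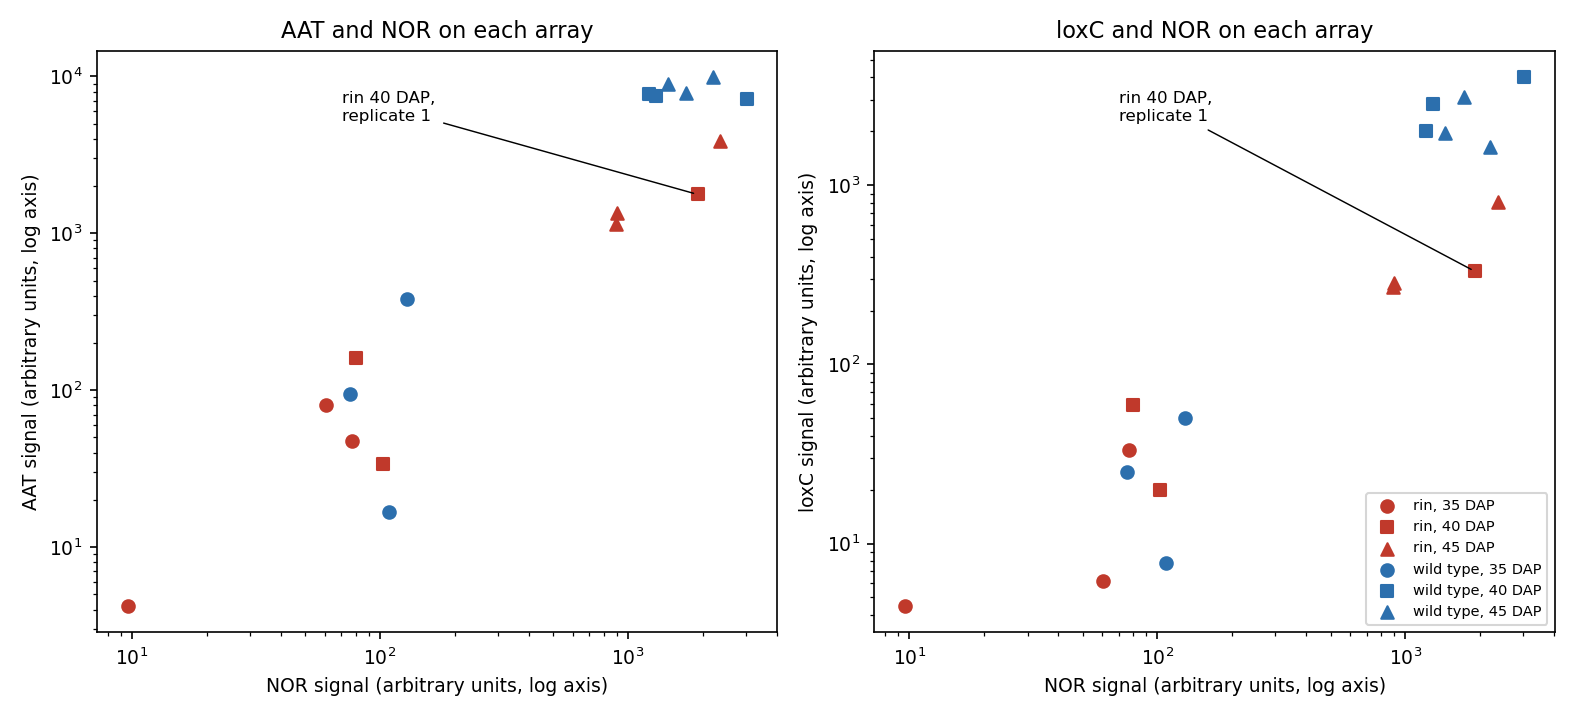
Signal of AAT (left) and loxC (right) against that of NOR on each of the 18 arrays, in arbitrary units on log axes, with rin in red, wild type in blue and 1 symbol per age. Replicate 1 of rin at 40 DAP, marked, had a NOR signal of 1910, beside the rin arrays at 45 DAP, and the other 2 rin arrays at 40 DAP had 79.8 and 103.

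The genes known from earlier work as RIN targets or as dependent on RIN were counted as context, and 18 of 25 listed were tested. At 35 DAP limma called 0 of the 18, with 3 at an unadjusted p under 0.05, beside 650 of the 7717 tested probe sets unadjusted. Without replicate 2 of rin at that age 1 of the 18 was called lower, with a median log2 difference of -0.33. Of the 18, 17 were lower in rin at 40 DAP and 12 at 45 DAP, none higher, beside the shares of all probe sets given above. XYL1, counted at both ages, was dim on every rin array and passed the filter through wild-type arrays alone, so it could count only as lower. Their median log2 difference was -0.27, -4.91 and -2.37 at 35, 40 and 45 DAP. At 40 DAP 17 of the 18 were also lower without replicate 1 of rin, with a median of -5.48. In rin 8 of the 18 rose at 45 against 35 DAP, beside 6% of all tested probe sets, with a median log2 change of 2.01 beside 0.03 over all. When replicate 2 of rin at 35 DAP was left out 5 of the 18 rose, with a median of 1.88. Among those called in both fits are PG2, the ripening polygalacturonase, which rose by at least 312-fold with all arrays (adjusted p = 0.00167), and Man4, an endo-mannanase, which rose by at least 194-fold (adjusted p = 0.00417). Both were dim on all 3 rin arrays at 35 DAP. At 45 DAP Cel2, dim on all 3 rin arrays, was at least 305-fold lower in rin than in wild type (adjusted p = 9.51e-08), and hdc, a histidine decarboxylase dim on 2 of 3 rin arrays, at least 207-fold lower (adjusted p = 1.96e-05).

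Within rin at 40 DAP, replicate 1 was the highest array for 14 of these 18 genes, beside 37.8% of all tested probe sets, a count made after its NOR signal had been seen. Man4 had 2026, 43.4 and 4.46 there, the third of them dim, against 9313, 10076 and 10693 in wild type. ACS2, the ripening ACC synthase of ethylene synthesis, was dim on all 3, at 6.06, 9.44 and 4.50, against 5718, 587 and 957 in wild type. On replicate 1 RIN had a signal of 5.33, dim as on the other rin arrays. The source of this array's higher signals was not tested.

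Of the other MADS-box genes on the array, several were higher in rin. Of 5 tested, which include AGL11, added to the list after the annotation had been seen, 3 were higher in rin at 40 DAP, beside 15.1% of all tested probe sets, and 3 at 45 DAP, beside 13.2%, with none lower. TDR8, not called at either age, was dim on every wild-type array and passed the filter through rin arrays alone, so it could hardly count as lower. At 35 DAP limma called 0 of the 5, with 0 at an unadjusted p under 0.05, beside 650 of the 7717 tested probe sets unadjusted. MADS1, a SEPALLATA-type gene, was higher in rin by log2 differences of 1.73 at 40 DAP (adjusted p = 0.00269) and 1.55 at 45 DAP (adjusted p = 0.0047). TDR6, a B-class floral gene also called TM6, was higher by 2.21 (adjusted p = 0.000968) and 2.07 (adjusted p = 0.00117), and TDR5, listed as LOC543885, by 0.51 (adjusted p = 0.0193) and 0.82 (adjusted p = 0.000829). In wild type 4 of the 5 fell at 45 against 35 DAP, beside 18.9% of all tested probe sets, among them MADS1, with a log2 change of -1.93 (adjusted p = 0.00056). AGL11, of the lineage known from ovules and seeds, fell at 45 against 35 DAP by at least 2.76-fold in rin (adjusted p = 0.024) and by at least 8.39-fold in wild type (adjusted p = 0.000202), with 2 and 3 of the arrays at 45 DAP dim. Without replicate 2 of rin at 35 DAP its log2 change in rin was -2.11 and not called (adjusted p = 0.109).

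Beside NOR, the NAC genes NAC1 and JA2 were tested, and neither was called between genotypes at any age. Over all tested probe sets 0.337%, 25.9% and 28.2% were called at 35, 40 and 45 DAP. At 35 DAP 1 of the 2 had an unadjusted p under 0.05, beside 650 of the 7717 tested probe sets. JA2 then had 26.0, 85.5 and 175 in rin, against 502, 563 and 446 in wild type (limma, log2 difference -2.78, adjusted p = 0.33). At 45 against 35 DAP NAC1 had a log2 change of 0.39 in rin (adjusted p = 0.781) and rose by at least 3.26-fold in wild type (adjusted p = 0.0322), with 2 of the 3 arrays dim at 35 DAP in each genotype. In rin its signals were 6.18, 83.4 and 11.6 at 35 DAP, against 19.8, 29.0 and 23.3 at 45 DAP. The small change in rin thus rests on replicate 2 at 35 DAP, and a value without that array is not given. Of 11 other regulators of fruit or ethylene response, 3 were higher and 1 lower in rin at 40 DAP, beside 15.1% and 10.8% of all tested probe sets, and 2 were higher and 1 lower without replicate 1 of rin at 40 DAP. The higher ones were ARF3 (log2 difference 1.28, adjusted p = 0.00228), EIL1 (0.82, adjusted p = 0.00941) and EIL2 (0.60, adjusted p = 0.0436), and the lower one was the ethylene response factor ERF2 (-2.61, adjusted p = 0.0455). At 45 DAP EIL2, an EIN3-like factor, was higher (1.76, adjusted p = 2.22e-05), EIL4 was lower (-1.36, adjusted p = 0.00754) and the other 9 were not called, beside 28.2% of all tested probe sets called in either direction.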

How the data were processed

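Transcript levels were measured on 18 single-channel Affymetrix arrays. The authors deposited linear intensity values, 1 for each probe set on each array, and the submitters' processing notes name GCOS with no version. The 2% trimmed mean ran from 327.65 to 348.23 over the arrays, so the deposited intensity values had been brought to a common level, with a target that the sources used here do not state. The number of arrays limits precision, and no column belongs to another sample (0).

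Intensities were taken to log2 with no further normalization. From 10209 probe sets, 108 controls were left out, as were 2384 with fewer than 3 arrays above the 30th percentile of their own array. A mean per group was fitted over 18 arrays with limma 3.58.1 in R 4.3.3 (eBayes with a trend, two-sided, Benjamini-Hochberg within each comparison). The procedure was tested on simulated data. Where arrays of the dimmer group were dim, the fold is a bound with dim signals raised to the 30th percentile. Names came from the platform annotation, updated through the RefSeq table of assembly SLM_r2.1, in which 4 of the 5 regulators matched by gene ID. The ID given for TDR4 was not matched, and the table gives TDR4 as a synonym of FUL1. Lists were matched by symbol and synonym only, as no gene titles were at hand.

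The regulators and lists were chosen with earlier results of these data known. Named beside the 5 were the 3 genes with the highest Pearson's r over 18 arrays, and called list members. Genes given as examples from the lists beyond these, and the rin arrays at 40 DAP looked at singly, were chosen after their values were seen. Alternatives covered normalization, offset, filter, arrays fitted, variance trend, array weights, blocks and leaving out arrays. Deviations of same-numbered arrays of different groups from their group means had a median correlation of 0.03, over 0.1 in 14 of 45 pairs. For different-numbered arrays the median was -0.008, over 0.1 in 22 of 90 pairs. Plants of the 2 genotypes are different plants. The second code in the titles can go with different plant numbers at different ages in wild type, while in rin it mostly stays with the same number. The replicate number was therefore not used as a pairing. That code as a random block is among the alternatives.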

Additional observations from a re-analysis of the deposited data

Results flagged for a closer look

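The change of RIN with age differed between the genotypes by the interaction test. The change in rin minus that in wild type was -4.92 on the log2 scale at 40 against 35 DAP (limma, adjusted p = 9.16e-05) and -5.65 at 45 against 35 DAP (adjusted p = 8.61e-06). RIN was dim on all 9 rin arrays, so its change with age in rin is not measured, and the size of both interactions depends on that floor. Groups of 3 arrays are too small for a search for single arrays that stand apart.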

How the results depend on the processing

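Of 47 differences of the regulators examined, 20 were called, and 15 of these kept direction and call in every one of 18 fits that left out 1 array and in every other setting that gave a value. Those of RIN at 40 and 45 DAP and the rise of NOR in rin at 45 against 35 DAP are among them. The log2 difference of NOR between rin and wild type at 40 DAP was called with quantile normalization (-2.79, adjusted p = 0.0475), median centring (-2.83, 0.0463), 32 added to the signal (-2.48, 0.0345), a 50th percentile filter (-2.75, 0.0454) and array weights (-3.05, 0.00111). Without the first rin array of each age, a setting chosen after seeing the data, it was -4.21 (0.000702), TAGL1 at 45 DAP was called at -0.92 (0.0217), and the change of TDR4 in rin at 45 against 40 DAP turned to 0.119, while that of NOR was called at 3.31 (0.0293). The interaction of TDR4 at 45 against 35 DAP was called with median centring (-2.97, 0.0499), with 32 added (-2.87, 0.0471) and with array weights (-3.17, 0.000531). Array weights, which ran from 0.231 to 6.46, also gave calls for TAGL1 (-0.60, 0.00726) and AG1 (-1.40, 0.000278) between genotypes at 45 DAP and for AG1 in wild type at 45 against 35 DAP (1.09, 0.00415), for TDR4 in wild type (1.37, 0.0186) and NOR in rin (2.60, 0.00504) at 45 against 40 DAP, and turned the interaction of NOR at 45 against 35 DAP to -0.18. Probe sets called between genotypes numbered 1689, 3964 and 4713 at 35, 40 and 45 DAP with array weights, against 26, 2002 and 2179 without. With only the arrays compared, AG1 in wild type at 45 against 35 DAP was called at 0.95 (0.0176), RIN at 35 DAP was not, at -4.49 (0.0618), and 7 probe sets at 35 DAP and 1075 at 40 DAP were called. At 35 DAP the 50th percentile filter gave 16 calls and leaving out the first rin arrays 285. With replicates 2 and 3 of rin at 45 DAP averaged, 1445 were called at 45 DAP, and the change of TDR4 in rin at 45 against 40 DAP was 0.0747. The difference of NOR in rin at 45 DAP from wild type at 35 DAP lost its call there (3.84, 0.0883) and with no filter (3.60, 0.0573), and that of TDR4 from wild type at 40 DAP lost it there (-2.67, 0.0637). The mean difference of NOR over the 3 ages lost its call in the same 2 settings (-1.51, 0.0751 and -1.59, 0.0566).

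The labels number the plants of each group as the replicates, but rin and wild-type plants differ. The second title code does not follow the number in wild type and mostly does in rin, so the pairing is not settled. With the replicate number as a block, calls were gained for NOR between genotypes at 40 DAP (-2.75, adjusted p = 0.0279), AG1 between genotypes at 45 DAP (-1.04, 0.0477) and AG1 in wild type at 45 against 35 DAP (0.95, 0.0499), and no other call of the 47 changed. With the second title code as a random block all 47 kept direction and call. Median centring moved the median over all probe sets by more than 0.1 for the interactions against 35 DAP, to -0.04 from 0.08 at 40 DAP and to -0.20 from -0.09 at 45 DAP.

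Leaving out 1 array at a time gave these ranges for log2 values that changed direction or call, beside those given with the results above. Between genotypes NOR at 40 DAP ran from -4.21 to -1.92, TDR4 at 35 DAP from -1.57 to 0.049, AG1 at 35 DAP from -0.53 to 0.016, AG1 at 45 DAP from -1.39 to -0.84 and TAGL1 at 45 DAP from -0.92 to -0.36. In rin TDR4 ran from -0.31 to 1.31 at 40 against 35 DAP, from -0.66 to 0.39 at 45 against 40 DAP and from -0.38 to 1.25 at 45 against 35 DAP. In wild type TDR4 ran from 1.99 to 2.81 at 40 against 35 DAP, NOR from -0.16 to 0.49 at 45 against 40 DAP and AG1 from 0.76 to 1.11 at 45 against 35 DAP. The interactions of TDR4 ran from -2.79 to -1.17 and from -3.74 to -2.12, and TDR4 in rin at 45 DAP against wild type at 35 DAP from -0.81 to 0.011. The cause of these changes was not tested. Signals of RIN in rin and of NOR on 1 rin array at 35 DAP were dim, which limits folds to bounds.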

Other observations

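Among the 3 rin arrays of an age, replicate 1 had the highest TDR4 and the highest AG1 signal at all 3 ages and the highest NOR and TAGL1 signal at 2 of 3. In wild type replicate 1 was the highest for RIN, NOR, TDR4 and AG1 at 2 of 3 ages and for TAGL1 at 1. The labels give replicate 1 as plant 1 of its group, and whether plant 1 is the same plant at each age is not settled. Within groups, the closest pair of arrays across probe sets was replicates 2 and 3 of rin at 45 DAP (r = 0.991), the least close pair had r = 0.867, and the TDR4 signals of the closest pair were 541 and 583.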
